A study of Mus musculus with 28 samples.

Results

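The regions described here are stretches of chromatin with the histone variant H3.3 that lay away from genes' ends and also carried acetylation of lysine 27 of histone H3 (H3K27ac) in mouse embryonic stem cells. They were chosen by position alone. A region of the deposited H3.3 list was taken if it lay on chromosomes 1 to 19, if no part of it came within 1 kb of either annotated end of any RefSeq gene, and if it shared at least 1 bp with a region of the deposited H3K27ac list. This gave 906 regions out of 5446 in the H3.3 list, or 16.9% of the 5377 on chromosomes 1 to 19, and 48.0% of the 1889 that lay away from gene ends. Their lack of a gene end and their H3K27ac come from the choice itself and are not results.

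The study profiled E14 cells, a male mouse embryonic stem cell line grown with LIF, by CUT&RUN, in which an antibody directs a nuclease to its target in isolated nuclei. Its 28 libraries covered 4 targets, which were H3.3, H3K27ac, H3K122ac and no primary antibody. The mutants carried alleles labelled A, for the K122A substitution of H3.3 named in the title, in the H3.3 genes H3f3a and H3f3b. The 4 mutant genotypes were H3f3a_AA_H3f3b_WTWT, H3f3a_WTWT_H3f3b_AA, H3f3a_AA_H3f3b_WTA (clone1 and clone2) and H3f3a_WTA_H3f3b_AA, each line having 1 library per target, and they were set against Wildtype cells with 2 libraries per target. The deposited lists are consensus regions with positions only. They hold no height, no score and no value per library, and which genotypes entered them is not stated by the sources at hand. No comparison of mutant with wildtype cells could therefore be made, depth is unknown, and there is no replicate error. Shares are given with exact (Clopper-Pearson) 95% intervals, which cover counting error only and treat regions or genes as independent.

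H3.3 is the form of histone H3 that is deposited throughout the cell cycle, by the chaperone HIRA at active genes and regulatory elements and by DAXX with ATRX at repeats and telomeres. H3K27ac is laid down mainly by the acetyltransferases EP300 and CREBBP and is found at active promoters and active enhancers. Enhancers are regulatory elements that act on a promoter from a distance, and in embryonic stem cells many of those that drive pluripotency genes are bound by OCT4, SOX2 and NANOG together.

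Bases could be read for the regions that lie over a start site that RefSeq annotates inside a longer gene. There were 83 such start sites, of 70 genes and in 71 regions, and for 58 of them, in 48 genes, all 250 bases before the start lay within the region. Of these, 5 are shown because they differ in CpG content and include genes of chromatin regulators. They were chosen after their values were seen. Each is the 250 bases before the start on the gene's strand, 5′ to 3′, from RefSeq on GRCm38.p6, and the capitals mark CpG pairs.
Cbx7: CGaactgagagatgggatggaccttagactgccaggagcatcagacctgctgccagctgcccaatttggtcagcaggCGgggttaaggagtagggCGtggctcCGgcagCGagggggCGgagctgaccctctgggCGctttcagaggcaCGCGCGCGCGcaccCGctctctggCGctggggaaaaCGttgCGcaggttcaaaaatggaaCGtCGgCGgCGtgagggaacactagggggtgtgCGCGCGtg
Pcgf2: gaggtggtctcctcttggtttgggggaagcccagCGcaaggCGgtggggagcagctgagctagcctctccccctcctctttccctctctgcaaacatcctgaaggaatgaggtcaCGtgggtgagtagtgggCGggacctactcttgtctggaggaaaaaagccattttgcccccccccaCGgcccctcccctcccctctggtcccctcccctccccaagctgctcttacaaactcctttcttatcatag
Kat5: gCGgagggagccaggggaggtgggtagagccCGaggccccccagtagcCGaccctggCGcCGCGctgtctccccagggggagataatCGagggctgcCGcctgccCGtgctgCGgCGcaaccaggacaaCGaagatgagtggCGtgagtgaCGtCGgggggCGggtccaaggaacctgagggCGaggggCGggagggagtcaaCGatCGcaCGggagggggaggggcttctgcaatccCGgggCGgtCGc
Ldb1: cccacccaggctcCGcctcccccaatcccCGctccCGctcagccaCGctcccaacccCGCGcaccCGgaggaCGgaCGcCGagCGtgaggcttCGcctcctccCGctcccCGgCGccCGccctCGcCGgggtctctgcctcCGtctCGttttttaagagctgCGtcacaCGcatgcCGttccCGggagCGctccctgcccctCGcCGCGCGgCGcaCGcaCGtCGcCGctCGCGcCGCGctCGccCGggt
Rarg: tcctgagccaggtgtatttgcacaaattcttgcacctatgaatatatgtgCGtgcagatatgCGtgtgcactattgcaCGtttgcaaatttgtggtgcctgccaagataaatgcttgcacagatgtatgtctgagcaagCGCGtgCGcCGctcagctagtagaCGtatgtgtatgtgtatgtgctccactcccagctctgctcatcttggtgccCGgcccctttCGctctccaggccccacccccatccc
The Cbx7 bases lie at chr15:79932647-79932896 on the minus strand, inside an H3.3 region of 1112 bp at chr15:79932109-79933220. The product of Cbx7 is a chromobox protein of Polycomb repressive complex 1. The Pcgf2 bases lie at chr11:97699649-97699898 on the minus strand, inside an H3.3 region of 1053 bp at chr11:97698959-97700011. Pcgf2 encodes another subunit of Polycomb repressive complex 1. The Kat5 bases lie at chr19:5609745-5609994 on the minus strand, inside an H3.3 region of 732 bp at chr19:5609625-5610356. Kat5 encodes a histone acetyltransferase. The Ldb1 bases lie at chr19:46045312-46045561 on the minus strand, inside an H3.3 region of 1245 bp at chr19:46045308-46046552. Ldb1 encodes a cofactor that joins LIM-domain transcription factors. The Rarg bases lie at chr15:102246501-102246750 on the minus strand, inside an H3.3 region of 1478 bp at chr15:102246165-102247642. Rarg encodes a retinoic acid receptor.

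The sequences shown were chosen to differ in CpG content, so their spread is set by the choice and is not a result. The ratio of observed to expected CpG pairs was 1.21 at Ldb1, 0.917 at Cbx7, 0.795 at Kat5, 0.589 at Rarg and 0.232 at Pcgf2. Their GC content was 76.0% at Ldb1, 71.6% at Kat5, 64.8% at Cbx7, 59.6% at Pcgf2 and 52.4% at Rarg. Over the 83 start sites the median GC content was 59.2% and the median CpG ratio 0.682. The ratio was above 0.6 at 55 of the 83, or 66.3%. The same share was 66.2% at the 68 starts inside H3.3 regions that lay away from gene ends without H3K27ac, 79.7% at the 928 starts inside H3.3 regions that lay at gene ends with H3K27ac, and 34.5% of all 31396 starts of the table outside chromosome 18. The start sites inside the acetylated regions away from gene ends were thus mostly CpG-rich, as were those of the other H3.3 classes.

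Among short motifs searched on both strands of these 250 bases, the ETS-type motif CCGGAAG was present at 10 of the 83 starts, or 12.0%. It was present at 8.82% of the 68 starts away from gene ends without H3K27ac, 22.2% of the 928 at gene ends with H3K27ac, 10.1% at gene ends without it and 7.01% of all starts. The E-box CACGTG was also present at 10 of the 83, or 12.0%. It was present at 8.82% of the 68 starts away from gene ends without H3K27ac, 7.0% at gene ends with H3K27ac, 7.69% at gene ends without it and 6.02% of all starts. For each of these motifs the 10 starts include overlapping windows of C87436 in the same region, so a single site is counted more than once. A motif of the ZIC factors was present at 10 of the 83 starts too, or 12.0%. It was present at 5.88% of the 68 starts away from gene ends without H3K27ac and at 8.49% of all starts. At gene ends its shares were 7.54% with H3K27ac and 7.18% without it. The octamer ATGCAAAT, a motif of the OCT factors, was found at 1 of the 83 starts (1.2%), against 1.61% of all starts, and the SOX motif ACAAAGG at 4 of them (4.82%), against 5.0% of all starts. These letters describe promoter windows only, and no bases were read for the regions that hold no annotated start.

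Whether the regions lie away from promoters was checked against these start sites, since a region away from a gene's annotated ends may still lie at an internal promoter. Of the 880 regions on the chromosomes with start sites, 71 held an annotated start, which is 8.07% (6.36 to 10.1%), and 146 lay within 1 kb of one, which is 16.6% (14.2 to 19.2%). The remaining 734 were more than 1 kb from every annotated start. Of the H3.3 regions away from gene ends without H3K27ac, 19.01% lay within 1 kb of a start, and of the H3.3 regions at gene ends with H3K27ac 81.5% did. Of the H3K27ac regions away from gene ends without H3.3, 1.92% did. By position, then, an enhancer-like label goes against 146 of the 880, which lie near an annotated start, and it is not used for the set. Regions within 1 kb of a start lay in narrower acetylated chromatin, with a median H3K27ac width of 1598 bp, against 3250 bp for the 734 others. Their own H3.3 widths were close to each other, at medians of 419 and 385 bp.

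The H3.3 regions were short. Their median width was 387.5 bp (95% interval of the median, 356 to 419 bp), with quartiles of 243.5 and 696 bp and a range of 195 to 4933 bp, and together they covered 465535 bp. The H3.3 regions away from gene ends without H3K27ac had a median of 430.0 bp, those at gene ends with H3K27ac 462 bp, and those at gene ends without it 503 bp. The difference was clearest among wide regions. Widths over 1000 bp were seen in 86 of the 906, or 9.49% (7.66 to 11.6%), against 21.9% (19.3 to 24.6%) of the regions away from gene ends without H3K27ac, 11.5% of those at gene ends with H3K27ac and 25.6% of those at gene ends without it. Only 4 of the 906 exceeded 2000 bp, or 0.442%, against 7.94%, 1.14% and 12.47% in the same 3 classes. The median was below that of the unacetylated regions away from gene ends on 14 of 19 chromosomes.

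**Figure D1:**
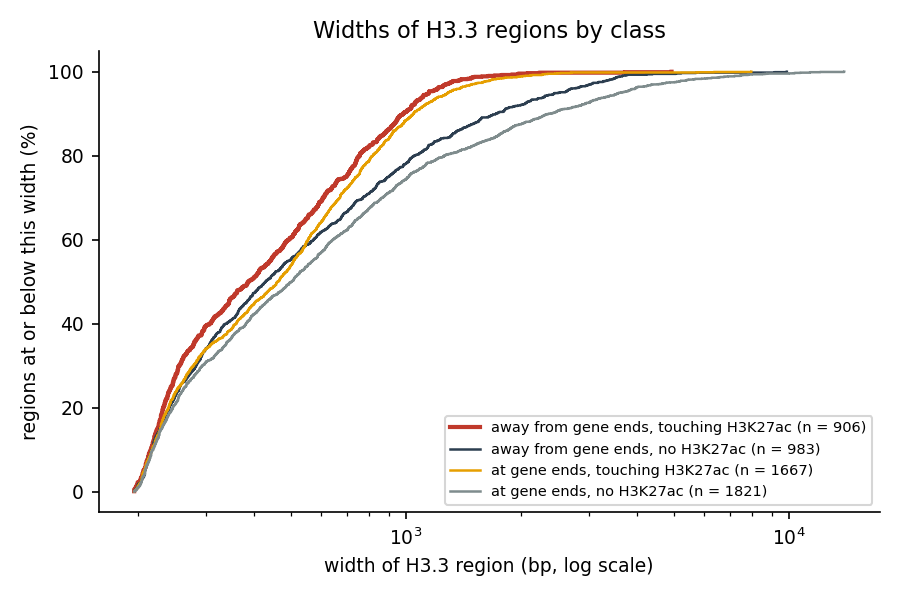
The curves give the share of H3.3 regions (%) at or below each width (bp, log scale) for the 4 classes by gene end and H3K27ac. The curve of the 906 acetylated regions away from gene ends reaches its top first, with 9.49% of them over 1000 bp.

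Among the 10 widest regions was one of 3716 bp inside Rhof, which encodes a small GTPase, and it was covered whole by 7059 bp of H3K27ac. Midn had 2222 bp, of which H3K27ac covered 21.3%. Tgif1, which encodes a repressor of TGF-beta signalling, had 2073 bp, covered whole. Further ones were at Schip1 (1963 bp), Gsx2 (1962 bp), Kdm6b (1885 bp), Ggnbp1 (1773 bp), Gli2 (1700 bp) and Loxl1 (1637 bp). Gsx2, a homeobox gene, shared 11.9% of its region with an H3K27ac region of 234 bp, while Schip1, Ggnbp1, Gli2 and Loxl1 were covered whole. At Kdm6b, H3K27ac covered 51.0% of the region, as an H3K27ac region of 962 bp that lay within it. Of the widest regions named here, those at Midn, Gsx2 and Kdm6b were covered by H3K27ac only in part.

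Most of the regions lay inside acetylated chromatin rather than across its edge. Of the 906, 717 were wholly inside a single H3K27ac region, which is 79.1% (76.4 to 81.7%), against 59.2% (56.7 to 61.5%) of the H3.3 regions at gene ends with H3K27ac. A further 21 covered a whole H3K27ac region, and 168 crossed an edge or met several regions. H3K27ac covered on average 92.0% of a region's length, and 65 of the 906 were covered over less than 50% of it. A region took up a median of 13.8% of the width of its H3K27ac region. Beside the 717 that were wholly inside, the acetylated chromatin reached a median of 863 bp further on the shorter side and 2157 bp on the longer side.

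The centres of the H3.3 regions were nearer the middle of the H3K27ac regions than their edges. With the distance from the middle to the edge cut into 5 equal steps of 20%, 25.5%, 24.8%, 21.3%, 13.8% and 14.6% of the centres fell into the steps from the middle outwards, centres beyond the edge being counted in the outermost. For the 573 whose H3K27ac region was over 2000 bp wide, where the width of the H3.3 region matters less, the shares were 28.1%, 26.7%, 23.2%, 13.4% and 8.55%. The innermost and the outermost step had intervals of 24.5 to 32.0% and 6.39 to 11.2%. Since any shared base is enough, H3.3 regions that overhang an edge of H3K27ac are included, and centres beyond the edge add to the outermost step. The choice also bars H3.3 regions within 1 kb of a gene end. For 207 of the 906, the widest H3K27ac region touched reached such an end. How the choice shapes the steps was not tested. What sets the lean to the middle was not tested. To the left of the middle lay 437 of 906, or 48.2% (44.9 to 51.5%).

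**Figure D2:**
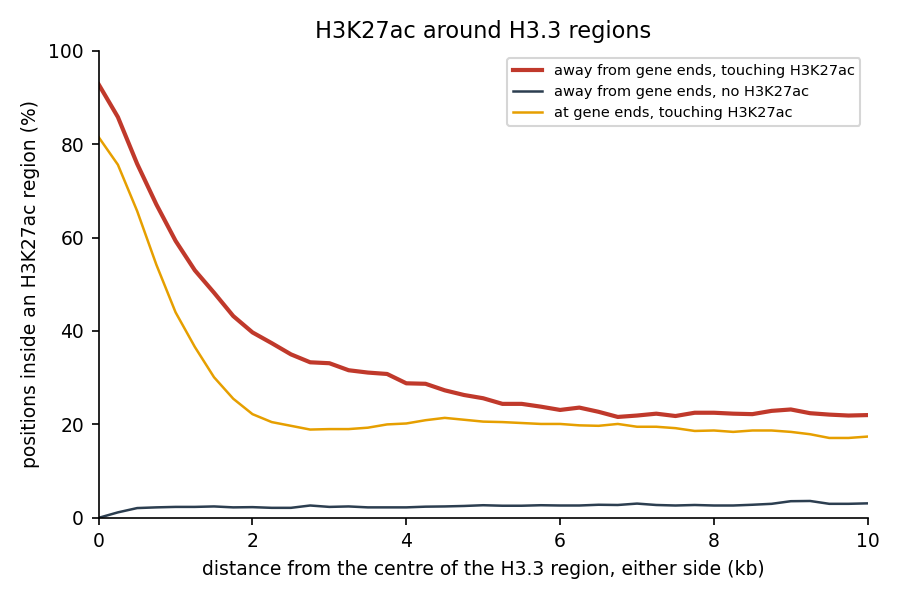
The curves give the share of positions (%) that lie inside an H3K27ac region at each distance (kb, both sides pooled) from the centre of H3.3 regions of 3 classes. For the acetylated regions away from gene ends it is 92.8% at the centre, which the choice sets, 39.7% at 2 kb and 22.0% at 10 kb.

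Acetylation extended well past the H3.3 regions. At 2 kb from the centre 39.7% of positions were inside an H3K27ac region, against 2.29% around the H3.3 regions away from gene ends without H3K27ac and 22.2% around those at gene ends with it. At 5 kb the shares were 25.6%, 2.70% and 20.6%, and at 10 kb 22.0%, 3.10% and 17.4%. The unacetylated regions away from gene ends therefore lay in chromatin with little H3K27ac at any of these distances. Since the classes were sorted by whether they touch H3K27ac, part of this contrast is set by the choice and is not a result.

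The 906 regions touched 875 H3K27ac regions with a median width of 2737 bp and a range of 181 to 45403 bp. Of these, 685 were themselves away from gene ends. They had a median width of 2297 bp, against 752 bp for the 43611 H3K27ac regions away from gene ends that no H3.3 region of any class touched. The share touched grew with width. It was 0.510% of the 14898 H3K27ac regions of up to 500 bp, 1.49% of the 9700 of 1000 to 2000 bp, 8.40% of the 1655 of 4000 to 8000 bp and 26.5% (12.9 to 44.4%) of the 34 over 16000 bp. Per length of acetylated chromatin the number did not grow steadily with width, though it rose over the middle classes. Since 1 shared bp is enough, H3.3 regions that reach past an H3K27ac region are counted too. This raises the number most in the narrowest class. The number of H3.3 regions per Mb of H3K27ac was 15.9 in regions of up to 500 bp, 9.67, 10.9 and 13.2 in the next 3 width classes, 17.0 in both classes from 4000 to 16000 bp and 14.0 above that. Across all widths, 1.55% (1.43 to 1.67%) of the 44315 H3K27ac regions away from gene ends were touched.

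**Figure D3:**
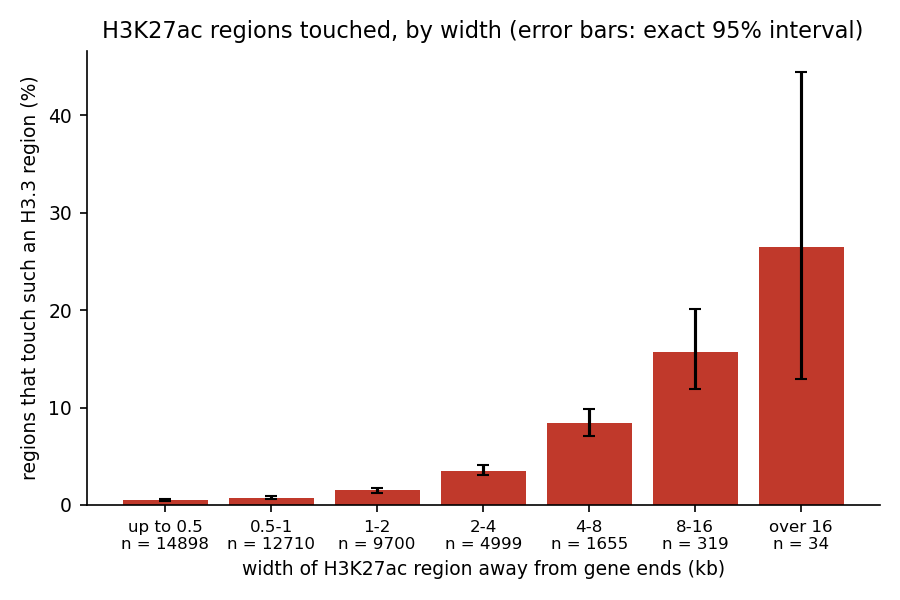
The bars give the share (%) of H3K27ac regions away from gene ends that touch an H3.3 region away from gene ends, by the width of the H3K27ac region (kb), with exact 95% intervals. The share is 0.510% in the narrowest class and 26.5% in the widest.

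The widest acetylated chromatin that held such a region was 45403 bp inside Tns3, which encodes a tensin of cell adhesions, around an H3.3 region of 741 bp at chr11:8575467-8576207. The next was at Esrrb, whose product is an orphan nuclear receptor of naive cells. It was 39271 bp wide, and an H3.3 region of 1110 bp at chr12:86470189-86471298 lay at its very edge, with its centre at 0.015 of the width. Etv5, an ETS factor downstream of FGF signalling, had 29593 bp of H3K27ac around 2 H3.3 regions of 1086 and 285 bp. The others of the 10 were at Etl4 (28509 bp), Cep68 (26987 bp), Bicral (25505 bp), Eif4e2 (24444 bp), Dlgap1 (24135 bp) and Usp7 (24051 bp). The widest of these 10 H3.3 regions was the one at Dlgap1, at 1576 bp.

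Single occupancy was the rule. Of the 875 H3K27ac regions touched, 836 held 1 of the H3.3 regions, 36 held 2 and 3 held 3. The 3 were at Med13l, Slc38a1 and Rps6ka1, the last 2 being named after their values were seen. At Med13l, a subunit gene of the Mediator kinase module, H3.3 regions of 557, 207 and 1054 bp lay within 5449 bp of H3K27ac, more than 100 kb upstream of the gene. At Slc38a1, an amino acid transporter gene, regions of 275, 581 and 245 bp lay within 4048 bp. At Rps6ka1, a kinase gene of the ERK pathway, regions of 204, 229 and 386 bp lay within 5681 bp.

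When H3K27ac regions up to a little over 12 kb apart were joined into clusters, as is common for stitching enhancers, 774 of 15168 clusters held an H3.3 region of this kind. Clusters with 2 or more such regions numbered 105 and held 237 of the 906, or 26.2%. Clusters with over 50 kb of H3K27ac held 123 of them, or 13.6% (11.4 to 15.98%), and 18.01% of all H3K27ac length. That length includes H3K27ac at gene ends, where the choice allows no such H3.3 region. The shares therefore do not compare how dense the regions were. With joining over 5 kb only, 6.18% of the 906 lay in clusters of that size. Of the 183 such clusters under the wider joining, 85 held at least 1. The 6 clusters with 4 regions lay at Usp7 (105.7 kb of H3K27ac), at Dlgap1 and Tgif1 (94.7 kb), at Zfp57, Mog, Gabbr1 and 2410137M14Rik (82.0 kb), at Soat2, Zfp740 and Rarg (46.7 kb), at Ube2d2a and Cxxc5 (42.1 kb) and at Med13l (22.2 kb). At the other end, 124 of the 906 lay at H3K27ac regions that had no neighbour within this distance. Neighbouring H3.3 regions of this kind were a median of 733328 bp apart on a chromosome, and 46 of the 887 neighbouring pairs were less than 5 kb apart.

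By chromosome, there were between 19 and 86 of the regions (median 45), or 2.23 to 5.67 for each 100 protein-coding genes. The share of H3.3 regions away from gene ends that touched H3K27ac ran between 31.2% and 62.8% over the 19 chromosomes.

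The regions lay about as often inside protein-coding genes as outside them. The centre of 481 of the 906 lay inside a protein-coding gene, which is 53.1% (49.8 to 56.4%). This was less often than for the H3.3 regions away from gene ends without H3K27ac, at 64.9% (61.8 to 67.9%), and for the H3K27ac regions away from gene ends without H3.3, at 80.2% (79.8 to 80.5%). The median distance from the centre to the nearest end of a protein-coding gene was 10084 bp, against 4549 bp for the unacetylated H3.3 regions and 14617 bp for the H3K27ac regions without H3.3. More than 50 kb from any such end lay 139 of the 906, or 15.3%, against 9.56% of the unacetylated H3.3 regions. Inside genes the regions leaned to the 5′ side. Of the 383 in genes of known strand, 33.7%, 21.9%, 20.1%, 13.8% and 10.4% fell into successive steps of 20% of the gene from 5′ to 3′. For H3K27ac regions without H3.3 the same steps held 17.8%, 22.2%, 21.6%, 21.2% and 17.2%, while for unacetylated H3.3 regions the first step held 38.2% and the last 11.0%. The first step had intervals of 29.0 to 38.7% for the acetylated H3.3 regions, 33.9 to 42.7% for the unacetylated ones and 17.4 to 18.3% for H3K27ac without H3.3. Regions near an annotated start were not taken out of these shares. Of the 146 acetylated H3.3 regions within 1 kb of a start, 145 lay inside a protein-coding gene. Their part in the lean to the 5′ side was not tested.

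Each region was assigned to the protein-coding gene that holds its centre, or otherwise to the gene with the nearest end, which says nothing of which gene it acts on. This gave 791 of 20665 genes a region, which is 3.83%. Most, 701, had 1 region, 68 had 2, 19 had 3, and Med13l, Tbl1xr1 and Usp7 had 4 each. At their own ends 67.6% (64.3 to 70.9%) of the 791 genes had H3K27ac and 25.3% (22.3 to 28.5%) had H3.3, against 40.6% and 16.8% of all protein-coding genes. Genes assigned an H3.3 region without H3K27ac showed the opposite order, with H3K27ac at the ends of 21.1% and H3.3 at the ends of 40.5%. These shares of H3K27ac are not independent of the choice, which sorts the H3.3 regions by H3K27ac. For 207 of the 906 regions (22.85%), the widest H3K27ac region touched itself reached an annotated gene end. Of the 791 genes, 58 (7.33%) had regions of both kinds, while 731 of all 20665 genes (3.54%) had an H3.3 region away from gene ends without H3K27ac.

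Usp7, which encodes a ubiquitin-specific protease, had its 4 regions 21851 to 35167 bp upstream of its 5′ end, with widths of 254, 418, 211 and 233 bp. Tbl1xr1, which encodes a subunit of the NCoR corepressor complexes, had 1 inside the gene and 3 outside, of up to 818 bp. Of the 19 genes with 3 regions each, the 7 with the largest summed width of these regions were Dlgap1, Schip1, C77080, Lrrc74a, Cxxc5, Slc2a3 and Klf13. Slc2a3 encodes a glucose transporter and lies next to Nanog on chromosome 6, where its regions reached 847 bp within up to 13389 bp of H3K27ac.

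**Figure D4:**
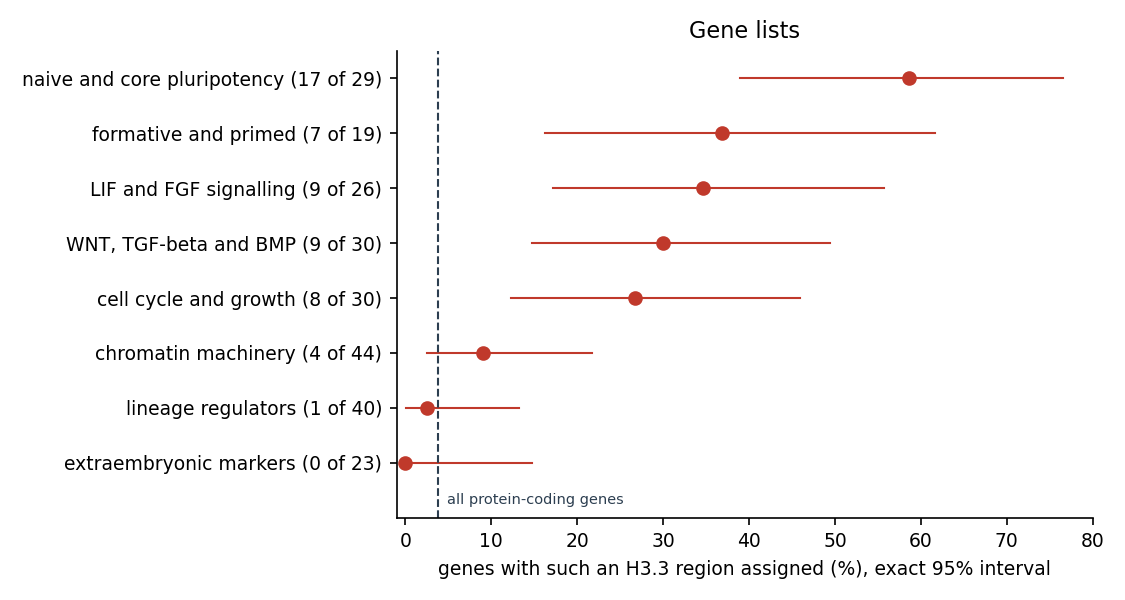
The points give the share (%) of each gene list assigned an H3.3 region away from gene ends that touches H3K27ac, with exact 95% intervals. The dashed line is the 3.83% of all protein-coding genes, and the lists run from 58.6% for naive and core pluripotency down to 0 of 23 extraembryonic markers.

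The gene lists, which were drawn up with earlier results of these data known, differed widely. Of 29 naive and core pluripotency genes 17 had a region, which is 58.6% (38.9 to 76.5%), against 3.83% of all protein-coding genes. With only the wider 50% of each region list kept, 7 of these genes and 324 of all genes had one. Of 19 formative and primed genes 7 did (36.8%), of 26 LIF and FGF signalling genes 9 (34.6%), of 30 WNT, TGF-beta and BMP genes 9 (30.0%) and of 30 cell cycle and growth genes 8 (26.7%). Of 44 chromatin machinery genes 4 did (9.09%, 2.53 to 21.7%), of 40 lineage regulators 1 (2.5%) and of 23 extraembryonic markers 0 (0 to 14.8%). Some genes stand in more than 1 list.

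Over all protein-coding genes, having a region went with how much acetylated chromatin a gene has. Whether this accounts for the differences between the lists was not tested. The share of genes with a region was 0.306% where no H3K27ac away from gene ends was assigned to the gene, 7.05% with 2 to 5 kb of it, 14.9% with 10 to 20 kb and 45.6% above 40 kb. Since a region had to touch H3K27ac to be chosen, part of this rise is set by the choice and is not a result. Among the 1493 genes with over 10 kb of it, 289 had a region, or 19.4%. At that level of acetylation the pluripotency list had a region at 8 of 12 genes, LIF and FGF signalling at 5 of 11 and cell cycle and growth at 4 of 7. The formative and primed list had one at 2 of 4, chromatin machinery at 3 of 25, the extraembryonic markers at 0 of 3 and the WNT, TGF-beta and BMP list at 0 of 7. The chromatin genes were rich in H3K27ac, with a median of 12.2 kb, against 8.61 kb in the pluripotency list. Genes with over 10 kb and no such H3.3 region included the acetyltransferase genes Ep300 and Crebbp, the H3.3 chaperone gene Hira, and the remodeller gene Smarca4, which were named after their values were seen.

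Among pluripotency genes, Sox2 had an H3.3 region of 851 bp at chr3:34760322-34761172, centred 110752 bp downstream of its 5′ end, inside 8429 bp of H3K27ac. Nanog, the homeobox factor of naive cells, had one of 665 bp at chr6:122702573-122703237, centred 4584 bp upstream of its 5′ end, inside 4146 bp of H3K27ac. Sall4, a zinc finger factor, had one of 741 bp at chr2:168761421-168762161 inside the gene, in 5658 bp of H3K27ac. At Sox2, Nanog and Sall4 the H3.3 region lay in the interior of the acetylated chromatin, whereas at Esrrb, given above, and at Jam2 it lay at an edge, with centres at 0.015 and 0.02 of the width. Tfcp2l1, a factor of the naive state, had one of 480 bp at chr1:118648058-118648537 inside the gene, near the middle of 17036 bp of H3K27ac. Mybl2, a cell cycle transcription factor, had 2 regions of 1032 and 272 bp in a single H3K27ac region of 23199 bp.

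Some further genes of the list are named after their values were seen. Klf4, another reprogramming factor, had a region of 323 bp at chr4:55477710-55478032, centred 54604 bp downstream of the 5′ end of the gene, in 20605 bp of H3K27ac. Tet2, a dioxygenase that oxidises 5-methylcytosine, had 2 regions of 351 and 221 bp inside the gene, in H3K27ac regions of 5176 and 22394 bp. Nr5a2, a nuclear receptor, had 2 inside the gene of 309 and 209 bp, and Zfp42, known as Rex1, had 2 upstream of 412 and 254 bp. The remaining genes of the 17 were Fgf4, Tcl1, Dppa5a, Tbx3, Zfp57, Jam2 and Dppa3, with regions of 229 to 469 bp. H3K27ac covered 48.5% of the region at Dppa3. Of the 12 without a region, Dppa4, Fbxo15, Klf2 and Klf5 come first by name. Pou5f1, which encodes OCT4, was also without one, although both marks were present at its ends.

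**Figure D5:**
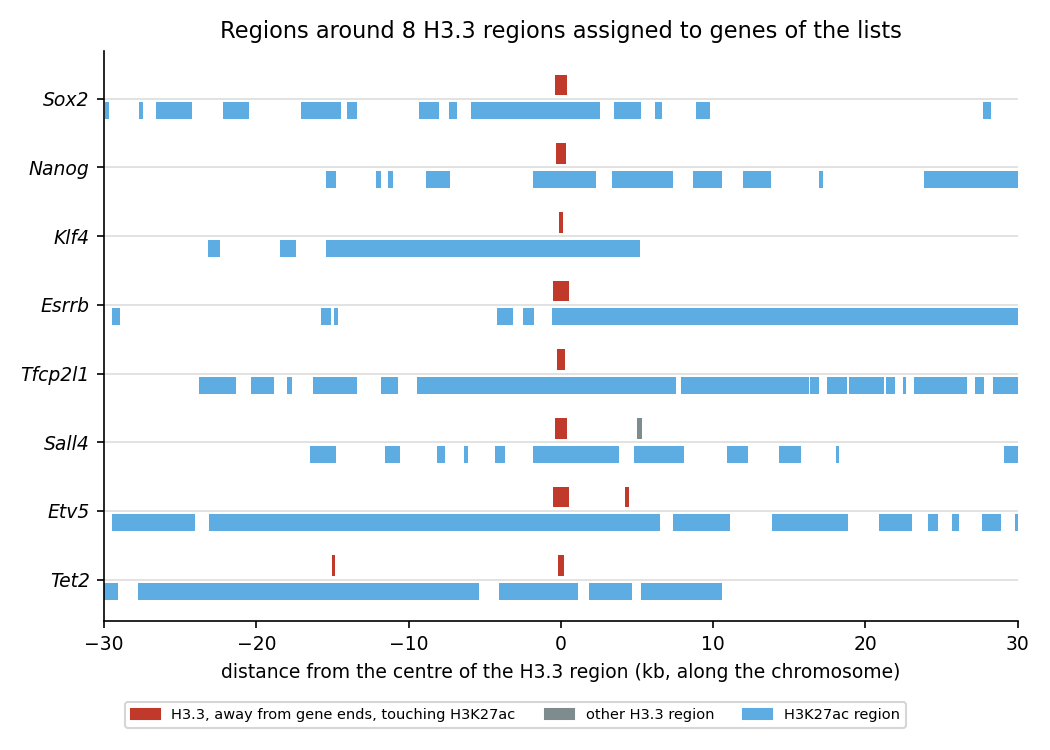
Each row shows 30 kb to either side of the centre of the widest H3.3 region assigned to 1 of 8 genes, along the chromosome, with H3.3 regions above the line and H3K27ac regions below it. The 60 kb held between 17.1 kb of H3K27ac at Sall4 and 48.5 kb at Etv5, and 1 or 2 of the acetylated H3.3 regions away from gene ends.

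The map of 8 loci shows how sparse H3.3 regions were within acetylated chromatin. Within 30 kb of the centre, Tfcp2l1 had 15 H3K27ac regions covering 44.4 kb and Sox2 13 covering 21.8 kb, each with 1 H3.3 region. Etv5 and Tet2 had 2 H3.3 regions each, in 48.5 and 36.7 kb of H3K27ac. An H3.3 region of another class lay in the window at Sall4 only.

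In the formative and primed list, Nodal, a TGF-beta family ligand, had a region of 1147 bp at chr10:61415761-61416907, centred 1638 bp upstream of its 5′ end. Its antagonists Lefty2 and Lefty1 had regions of 885 and 358 bp. Etv5 had the 2 regions given above, Otx2, a homeobox factor, had one of 573 bp, Foxd3, a forkhead factor, one of 555 bp, and Lef1, a WNT effector, one of 389 bp. Cdh2, Dnmt3a, Dnmt3b and Dusp6 had none. The ligand and its antagonists thus each had an acetylated H3.3 region nearby.

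In LIF and FGF signalling, Il6st, which encodes the shared receptor subunit gp130, had 2 regions of 1064 and 384 bp, both upstream. The kinase genes Pim1 and Pim3 had regions of up to 988 and 943 bp, Fgfr2 one of 882 bp of which H3K27ac covered 34.8%, and Spred2, an inhibitor of ERK signalling, one of 859 bp. Socs3, the feedback inhibitor of LIF signalling, named after its values were seen, had one of 802 bp. Dusp4, Dusp6, Egr1 and Etv1 had none. In the WNT, TGF-beta and BMP list, besides Nodal, the Lefty genes and Lef1, regions lay at Bmpr2 (801 bp), Smad2 (423 bp), Id1 (399 bp), Fzd5 (372 bp) and Smad6 (234 bp). Bmpr2 and Fzd5 are receptors, Smad2 transduces Nodal signals, Smad6 inhibits BMP signalling and Id1 is a BMP target. Acvr2b, Axin2, Bmp4 and Bmpr1a had none.

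In the cell cycle and growth list, the cyclin genes Ccnd1 and Ccnd3 had regions of 1326 and 1149 bp, and Ccne1 had one of 528 bp. Mycn had one of 1141 bp, at a centre 153722 bp downstream of its 5′ end, and Myc one of 660 bp, with 54527 bp to the nearest gene end. Ncl, which encodes nucleolin, had one of 757 bp. Ccnd2, Cdk2, Cdk4 and Cdk6 had none. Myc and Mycn were thus far from the region assigned to them, while Mycl, named after its values were seen, had none. In the chromatin list, the regions lay at the H3K4 demethylase gene Kdm5b (739 bp), at Kat5 (732 bp), at the BAF subunit gene Arid1a (557 bp) and at Jarid2, a partner of Polycomb repressive complex 2, with 3 regions of 473, 330 and 292 bp. Arid1b, Asf1a, Asf1b and Brd2 had none. Of the lineage regulators, Cdx2, Dlx2 and Dlx5 were among those without a region. Of the extraembryonic markers, Ascl2, Cdx2, Col4a1 and Col4a2 come first by name among those without a region.

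At the limits of the choice, the regions nearest to a gene end that still qualified were at Cradd (1004 bp), Csnk1e (1018 bp) and Zfp369 (1023 bp), and those just left out were at Frmd8 and Tm4sf5 (991 bp each) and Ercc1 (973 bp). The smallest overlaps that qualified were 1 bp at Cdc42ep4, 3 bp at Ptch1 and 16 bp at Klf13. The regions just left out included those at Igf2bp3 and Ahcy, each 3 bp from H3K27ac. Few regions were this close to the limit. Of the 906, 17 shared less than 100 bp with H3K27ac, and of the 983 without H3K27ac, 84 lay within 1 kb of an H3K27ac region and 720 more than 10 kb from one.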

How the data were processed

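CUT&RUN was performed on nuclei of E14 cells, per the labels' protocols. Per the submitters' processing notes, the tools were Bowtie2, SAMtools, deepTools and MACS2 and the build mm10, with no version or role given. The deposited lists hold the chromosome, start and end of consensus regions of H3.3 and H3K27ac, with no count, signal or score. How single libraries were combined is not given in the sources used here. Starts were raised by 1. Genes and start sites came from RefSeq on GRCm38.p6, and chromosome 18 was not used for start sites. No genome was given, so the planned sequence analysis of region centres was replaced by that of promoter windows. Overlaps were computed with Python 3.11.15, numpy 2.4.6, pandas 2.3.3 and scipy 1.17.1, and checked on simulated regions. The regions and gene lists, and the rule for named genes, were chosen with earlier results of these data known. By that rule the text names the 10 widest regions, the 10 in the widest H3K27ac, the 10 genes with the most regions, up to 6 genes with and 4 without a region per list, and regions at each limit. No test was made, since no value per library exists. Of 247 names in 8 lists, 232 were distinct and 6 of these were not found. Some items that the rule would name are not reported here.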

Additional observations from a re-analysis of the deposited data

How the results depend on the processing

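Of 78 values recomputed under 10 alternative settings, 58 stayed within the interval of the value given or within 1.5 times a count. A gene end window of 500 bp gave 45.2% of H3.3 regions away from gene ends touching H3K27ac and a mean covered share of 90.6%. With 2.5 kb these were 53.5% and 94.0%, with at least 50% of the region covered 44.5% and 97.1%, and with H3K27ac allowed within 1 kb 52.4% and 84.2%. Keeping the wider 50% of the lists gave 341 regions, 39.3% touching, a mean covered share of 93.7%, median widths of 742 bp for H3.3 and 4121 bp for H3K27ac, 9.97% in clusters of over 50 kb, 7 pluripotency genes and 324 genes in all. Joining over 5 kb put 6.18% of the regions in such clusters. Assigning regions to every gene within 50 kb gave 7 chromatin genes in place of 4. Without the regions within 1 kb of an annotated start, an alternative chosen after seeing the data, 760 regions remained. They include the 26 of chromosome 18, which were kept unchecked because its start sites were not used. The 760 had a median H3K27ac width of 3177 bp and 44.2% inside a gene, and 16 of the 17 pluripotency genes had one. The cause of these shifts was not tested. No replicate could be left out and no paired analysis was possible because the lists hold no value per library. The planned motif search over shorter windows was not run for want of a genome. Depth is unknown.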
